A study of Mus musculus with 18 samples.

Results

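The 10 genes Cyp7a1, Cyp8b1, Cyp27a1, Cyp7b1, Akr1d1, Amacr, Slc27a5, Baat, Abcb11 and Slc10a1 carry out the synthesis, conjugation and hepatic transport of bile acids, and they were taken by name from the 54532 genes measured in mouse liver by RNA-seq. All mice were male wild type (WT) C57BL/6J animals that started a purified diet at 1 month of age and were fasted overnight before harvest. In the experiment without fenofibrate, 5 mice received the control diet (Ctrl) and 5 the riboflavin-deficient diet (B2D) for 1 month. In the experiment with fenofibrate, an agonist of the nuclear receptor PPARα, 4 control-diet mice (Ctrl+FF) and 4 deficient-diet mice (B2D+FF) were kept on diet for 9 weeks and dosed from week 7 to week 9, with a last dose 2 hr before harvest. The experiments differ in fenofibrate, in time on the diet and in the table they were normalized in, and these cannot be told apart, so diets were compared only within an experiment.

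Bile acids are made from cholesterol in hepatocytes. In the classic route, Cyp7a1 carries out the first and rate-limiting hydroxylation of cholesterol, and Cyp8b1 then directs intermediates towards cholic acid. In the acidic route, the mitochondrial enzyme Cyp27a1 oxidizes the sterol side chain and Cyp7b1 hydroxylates the resulting oxysterols. Akr1d1 reduces the steroid ring, Amacr converts side chain intermediates to the form that peroxisomes can shorten, and Slc27a5 and Baat activate bile acids and conjugate them to amino acids. Abcb11 exports bile salts into the canaliculus, and Slc10a1 takes them up from blood. The P450 enzymes among them receive electrons from flavoproteins, directly or, for Cyp27a1, through a ferredoxin. The cofactors of flavoproteins are made from riboflavin.

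The libraries held from 15320729 to 21266792 reads on genes without fenofibrate and from 16290762 to 21898502 with fenofibrate, and Pearson correlations between libraries of a group were between 0.955 and 0.989. Levels are given in FPKM, the fragments counted on a gene divided by its length in kilobases and by library size, and each of the 10 genes had at least 403 reads in every library. Of the hepatocyte markers, 9 of the 10 listed were in the table and none passed the test in either diet comparison. The ileal markers Fabp6 and Fgf15 were at 0 in every library. A lower level in whole liver can come from fewer cells of a type or from less RNA per cell, and these cannot be told apart.

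The 4 sterol P450 genes are the members on which the comparison of routes rests, and the stretch of each that encodes the heme-binding signature is printed here to show how related they are. It was read from the GENCODE vM21 transcripts on GRCm38 (chr4:6268386-6268415, minus strand, exon 6 of 6 of Cyp7a1, chr9:121914942-121914971, minus strand, the single exon of Cyp8b1, chr1:74737320-74737349, plus strand, exon 8 of 9 of Cyp27a1, and chr3:18072634-18072663, minus strand, exon 6 of 6 of Cyp7b1). All 4 stretches are coding sequence, and capitals mark the codon of the cysteine that binds the heme iron.
Cyp7a1: tttggatcaggagctacaataTGTcctgga
Cyp8b1: tggggctcgggtgtttccaagTGCcccggc
Cyp27a1: ttcggctatggggttcggtctTGCctgggt
Cyp7b1: tttggactcggaacaagcaaaTGTccaggg
Cyp7a1 and Cyp7b1 shared 20 of these 30 bases and 39.8% of 490 aligned residues, the highest identity of the 6 pairs. Cyp27a1 was the most distant, with 25.0% to 27.2% of residues shared with each of the others. The encoded proteins have 503 residues for Cyp7a1, 500 for Cyp8b1, 533 for Cyp27a1 and 507 for Cyp7b1.

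The order of levels in Ctrl liver put Cyp8b1 first, at 459 ± 109 FPKM (SD, n = 5). Slc27a5 at 340.3 ± 31.9 FPKM and Slc10a1 at 330.5 ± 44.3 FPKM followed and did not differ beyond their spread. Cyp27a1 at 182 ± 13.2 FPKM and Baat at 168 ± 32.7 FPKM formed the next pair, again within their spread. Akr1d1 at 75.05 ± 12.7 FPKM, Amacr at 73.7 ± 8.48 FPKM and Cyp7b1 at 72.1 ± 22.8 FPKM lay close together. Cyp7a1 at 51.0 ± 14.1 FPKM and Abcb11 at 40.7 ± 15.4 FPKM were the lowest, and their ranges overlapped with each other and with that of Cyp7b1. The transcript of the acidic route's first enzyme was thus at a higher level per length than that of the classic route's in each Ctrl library. The ratio of Cyp7a1 to Cyp27a1 was between 0.198 and 0.332.

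**Figure D1:**
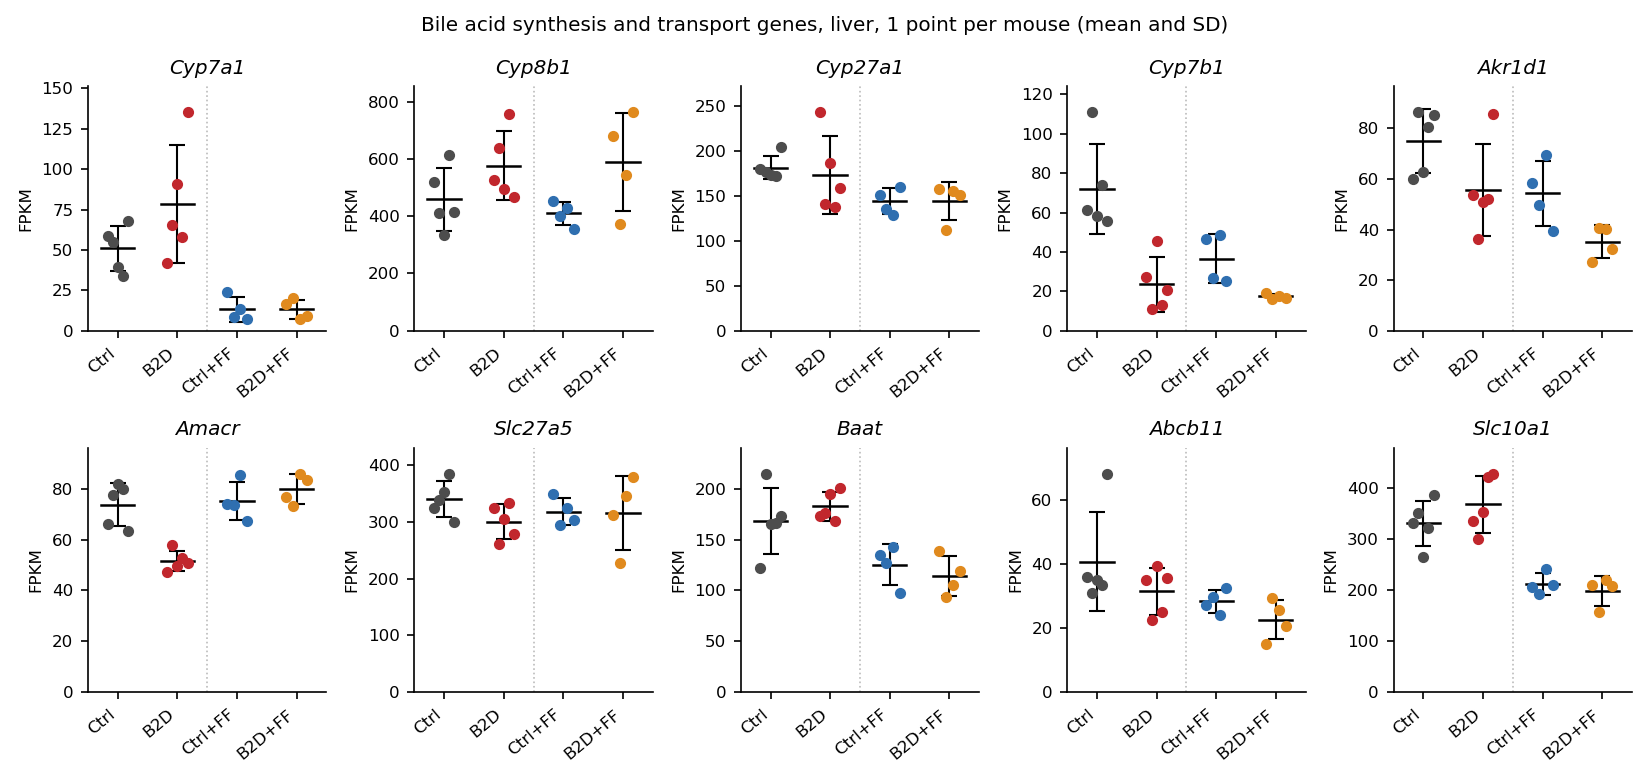
FPKM of each of the 10 genes (y axis, from 0, own scale per gene) in every library of the 4 groups (x axis), with group mean and SD as black lines; a dotted line separates the experiments, which were normalized apart. Cyp7b1 was lower on the deficient diet in both, with group means of 72.1 against 23.5 and 36.7 against 17.4 FPKM, and Amacr was lower in B2D than in Ctrl, at 51.6 against 73.7 FPKM.

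Without fenofibrate, Cyp7b1 and Amacr were lower in B2D than in Ctrl and the other 8 genes did not pass the test. The comparison was made with limma on log2(FPKM + 1), with p-values adjusted by the Benjamini-Hochberg method over all 11574 genes tested and a threshold of 0.05. Thus 2 of the 10 genes were called lower, where 1.94% of all genes tested were, and 0 were called higher, where 0.769% of all genes were. At an unadjusted p under 0.05, 3 of the 10 passed. The B2D libraries lay wholly below the Ctrl libraries for the same 2 genes, and groups did not overlap in either direction for 4.98% of all genes. The median log2 fold change was -0.14 over the 10 genes and -0.0013 over all genes.

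Cyp7b1, the oxysterol hydroxylase of the acidic route (chr3:18071950-18243338, minus strand), was at 61.4, 111, 58.3, 74.0 and 55.9 FPKM in Ctrl mice 1 to 5. In B2D mice 1 to 5 it was at 27.4, 10.9, 45.6, 12.9 and 20.6 FPKM. No B2D mouse reached the lowest Ctrl mouse, with Ctrl 2 far above the other Ctrl mice and B2D 3 nearest to them. The mean of 23.5 ± 14.0 FPKM in B2D was 0.325 times that of 72.1 ± 22.8 FPKM in Ctrl (SD, n = 5 each), or on the log2 scale -1.71 ± 0.334 (SE, adjusted p = 0.0230 by limma). Leaving out Ctrl 2, Ctrl 4 or B2D 4 ended the call, with log2 fold changes between -1.99 and -1.50 and limma adjusted p-values between 0.00518 and 0.0714 over the 10 libraries left out in turn. Without a filter on low values, the limma adjusted p was 0.0911 with the same fold change.

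Cyp7b1 is known to have higher transcript levels in male than in female mouse liver. Of 19 tested genes on a list with that property, 15 were lower in B2D and 0 higher, and the list's median log2 fold change was -1.73. Over all genes tested, 1.94% were lower and 0.769% higher. The 6 with the smallest adjusted p over both experiments were Selenbp2, Mup20, Mup7, Mup3, Mup21 and Mup1, and the Mup genes have near-identical copies that may share reads. The summed level of all 20 listed genes ranged from 14227 to 23904 FPKM in Ctrl and from 2895 to 8136 FPKM in B2D. Of 20 listed genes with higher levels in female liver, 11 were tested, and 7 were higher in B2D and 0 lower. Some genes of both lists averaged under 0.5 FPKM in the lower diet group and passed the filter only through the other group. The direction of those genes was thus fixed in advance, and the counts are a description. The part of the changes in both lists in the result for Cyp7b1 was not tested.

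Amacr, the racemase of the side chain intermediates (chr15:10981756-10996626, plus strand), was at 66.0, 77.5, 81.8, 80.0 and 63.3 FPKM in Ctrl mice 1 to 5. In B2D mice 1 to 5 it was at 47.3, 57.8, 49.5, 52.9 and 50.6 FPKM. All B2D values were below all Ctrl values, and the spread within B2D was narrow. The mean fell from 73.7 ± 8.48 to 51.6 ± 4.01 FPKM (SD over 5 mice each), a log2 change of -0.50 ± 0.107 (SE, adjusted p = 0.0326 by limma). The call held with Ctrl 1, Ctrl 5 or B2D 2 left out and was lost with any of Ctrl 2, Ctrl 3, Ctrl 4, B2D 1, B2D 3, B2D 4 and B2D 5 left out, with limma adjusted p-values between 0.0266 and 0.0967. The log2 fold change stayed between -0.55 and -0.46 in these fits, and it was -0.39 (adjusted p = 0.0819 by limma) after quantile normalization.

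Cyp7a1, the rate-limiting enzyme of the classic route (chr4:6265612-6275633, minus strand), was at 58.7, 54.8, 39.1, 34.1 and 68.0 FPKM in Ctrl mice 1 to 5. In B2D mice 1 to 5 it was at 42.1, 65.3, 90.9, 58.0 and 135 FPKM. The groups overlapped, with the highest values in B2D 5 and B2D 3 and the lowest in Ctrl 4 and Ctrl 3. The log2 fold change of 0.54 ± 0.286 (SE) did not pass the test (adjusted p = 0.338 by limma), and its 95% confidence interval ran from -0.083 to 1.16. Cyp8b1 (chr9:121914356-121916305, minus strand) gave a similar picture, with 334 to 614 FPKM in Ctrl and 466 to 757 FPKM in B2D and a log2 fold change of 0.34 ± 0.183 (adjusted p = 0.348 by limma).

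Cyp27a1, the first enzyme of the acidic route (chr1:74713574-74737892, plus strand), was at 181, 177, 174, 172 and 205 FPKM in Ctrl mice 1 to 5. In B2D mice 1 to 5 it was at 244, 142, 187, 138 and 159 FPKM. B2D values lay on both sides of the Ctrl values and were more spread, with a coefficient of variation of 25.0% against 7.26%. Its change was -0.093 on the log2 scale, with an SE of 0.152 (adjusted p = 0.782 by limma), with a 95% confidence interval from -0.42 to 0.24. The 2 genes of the acidic route thus gave different results in the same mice, with Cyp7b1 past the threshold and Cyp27a1 not, though the difference between them was not tested as such.

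Akr1d1 (chr6:37530173-37568815, plus strand) was at 60.0, 86.4, 62.8, 80.5 and 85.5 FPKM in Ctrl and at 53.6, 36.3, 50.8, 52.1 and 85.6 FPKM in B2D. The first 4 B2D mice were below all Ctrl mice, and B2D 5 was within the upper Ctrl values. The log2 fold change of -0.46 ± 0.199 had an unadjusted limma p of 0.0386 and did not pass after adjustment (adjusted p = 0.242). A processed pseudogene, Gm7463, lies inside Akr1d1 on the same strand and reached 28.9 FPKM in B2D 5, so the 2 could share reads.

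None of the conjugation enzymes and transporters passed the test. Slc27a5 (chr7:12988346-12998192, minus strand) ranged from 299.7 to 385 FPKM in Ctrl and from 261 to 333 FPKM in B2D, with a log2 change of -0.18 (adjusted p = 0.408 by limma). Baat (chr4:49489422-49506557, minus strand) ranged from 122 to 215 FPKM in Ctrl and from 168 to 201 FPKM in B2D, with a log2 change of 0.14 (adjusted p = 0.629 by limma). All 4 conjugation and transport genes had overlapping groups. Slc10a1 (chr12:80953183-80968705, minus strand) ranged from 264 to 385 FPKM in Ctrl and from 301 to 428 FPKM in B2D, a log2 change of 0.15 (adjusted p = 0.587 by limma). Abcb11 (chr2:69238282-69342616, minus strand) was at 36.1, 31.0, 34.97, 33.3 and 68.1 FPKM in Ctrl and between 22.4 and 39.4 FPKM in B2D, with a log2 change of -0.33 (adjusted p = 0.438 by limma). Ctrl 5 held the high Abcb11 value, and without it the log2 fold change was -0.14 (adjusted p = 0.693 by limma).

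**Figure D2:**
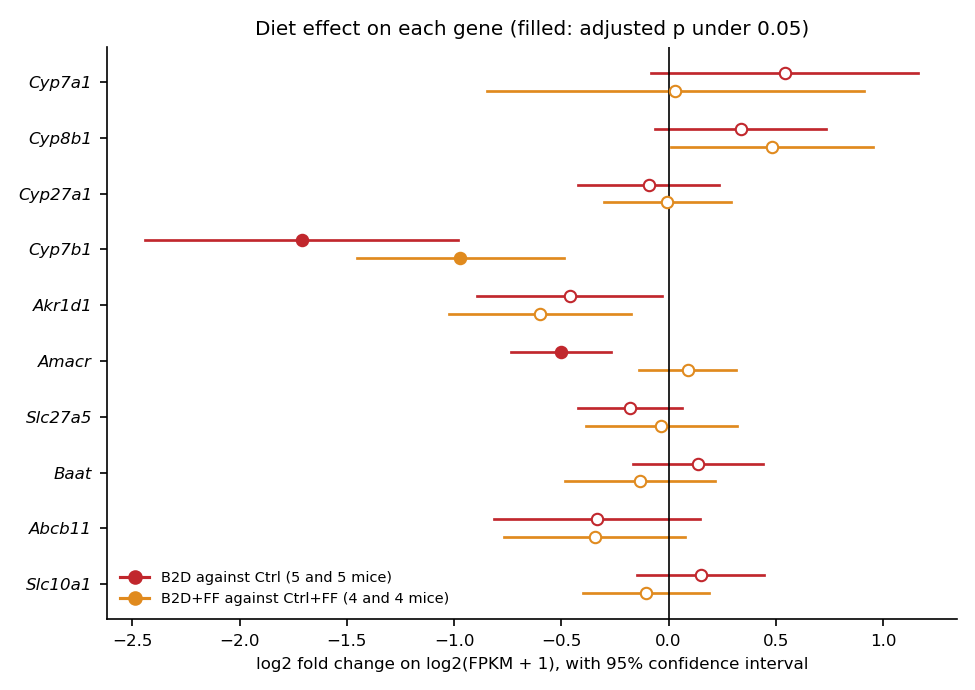
Log2 fold change on log2(FPKM + 1) with its 95% confidence interval (x axis) for each of the 10 genes (y axis), B2D against Ctrl in red and B2D+FF against Ctrl+FF in orange. Filled points passed an adjusted p of 0.05, which were Cyp7b1 at -1.71 and -0.97 and Amacr at -0.50, and all other intervals belong to genes that did not pass.

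With fenofibrate, Cyp7b1 was again lower on the deficient diet and no other of the 10 genes passed. Thus 1 of the 10 was called lower, where 2.21% of all 11878 genes tested were, and 0 higher, where 2.24% of all genes were. At an unadjusted p under 0.05, 3 of the 10 passed. Groups did not overlap for 1 of the 10, against 14.3% of all genes in either direction. The median log2 fold change was -0.069 over the 10 genes and 0.013 over all genes.

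Cyp7b1 was at 46.4, 26.5, 48.7 and 25.1 FPKM in Ctrl+FF mice 1 to 4 and at 19.4, 16.3, 17.5 and 16.6 FPKM in B2D+FF mice 1 to 4. Ctrl+FF values fell into a higher and a lower pair, and the B2D+FF values were close together just below the lower pair. The mean was 36.7 ± 12.6 FPKM in Ctrl+FF and 17.4 ± 1.38 FPKM in B2D+FF (SD over 4 mice each), a log2 change of -0.97 ± 0.214 (SE, adjusted p = 0.0382 by limma). The call held with Ctrl+FF 2 or Ctrl+FF 4 left out and was lost without Ctrl+FF 1, without Ctrl+FF 3 and without each of the 4 B2D+FF libraries, with limma adjusted p-values up to 0.104 and log2 fold changes between -1.13 and -0.82. Of the listed genes with higher levels in male liver, 11 of 18 tested were lower and 0 higher in B2D+FF. Over all genes tested, 2.21% were lower and 2.24% higher. Mup1 passed the filter only through Ctrl+FF, at a mean of 10.1 FPKM against 0.492 FPKM in B2D+FF. The summed level of all 20 listed genes ranged from 4204 to 11448 FPKM in Ctrl+FF and from 1079 to 1413 FPKM in B2D+FF. The part of the listed genes in the result was not tested here either.

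Cyp7a1 was low in all fenofibrate libraries, at 24.2, 8.22, 13.7 and 7.41 FPKM in Ctrl+FF and at 16.5, 19.999, 7.47 and 9.12 FPKM in B2D+FF. The groups covered nearly the same range. The log2 fold change was 0.032 ± 0.390 (adjusted p = 0.975 by limma), and its wide 95% confidence interval from -0.85 to 0.91 leaves a change in either direction possible. Every fenofibrate library was below every library without fenofibrate, the lowest of which was Ctrl 4 at 34.1 FPKM, a description across tables with no test.

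Cyp8b1, beside it, was at 454, 403, 428 and 356 FPKM in Ctrl+FF and at 681, 372, 546 and 764 FPKM in B2D+FF. B2D+FF mice 1, 3 and 4 were above all Ctrl+FF mice, and B2D+FF 2 was among the lowest. The log2 fold change of 0.48 ± 0.209 had an unadjusted limma p of 0.0461 and did not pass after adjustment (adjusted p = 0.227). Without B2D+FF 2 it was 0.69 and passed (adjusted p = 0.0358 by limma).

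Cyp27a1 was at 151, 136, 129 and 160.5 FPKM in Ctrl+FF and at 158, 112, 156 and 152 FPKM in B2D+FF. The groups overlapped, B2D+FF 2 being the lowest of all. On the log2 scale the change was -0.0056 ± 0.132 (adjusted p = 0.989 by limma), with a 95% confidence interval from -0.30 to 0.29.

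Akr1d1 was at 58.5, 49.8, 69.7 and 39.4 FPKM in Ctrl+FF and at 27.3, 40.7, 40.4 and 32.3 FPKM in B2D+FF. Only Ctrl+FF 4 reached into the B2D+FF range. The log2 fold change of -0.60 ± 0.189 had an unadjusted limma p of 0.0106 and an adjusted p of 0.105. Gm7463 was at no more than 4.22 FPKM in these libraries.

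Amacr was at 73.8, 73.5, 85.5 and 67.4 FPKM in Ctrl+FF and at 76.6, 73.3, 85.9 and 83.5 FPKM in B2D+FF. The groups overlapped almost wholly, and the log2 fold change was 0.090 ± 0.10 (adjusted p = 0.655 by limma). The diet effect on Amacr was higher by 0.59 ± 0.142 on the log2 scale with fenofibrate than without, by limma in 1 fit of all 18 libraries. This difference had an adjusted p of 0.0895 over all genes and an unadjusted p of 0.000604. It passed with limma array weights, which give less weight to more variable libraries (adjusted p = 0.0219). None of the 10 genes passed this test of the difference in the fit with equal weights, where 0.228% of 11862 genes did and where 1 of the 10 had an unadjusted p under 0.05. For Cyp7b1 the difference was 0.74 ± 0.454 (adjusted p = 0.532 by limma), and for Cyp7a1 it was -0.51 ± 0.511 (adjusted p = 0.732 by limma).

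Abcb11 was at 27.3, 29.7, 24.1 and 32.5 FPKM in Ctrl+FF and at 15.04, 29.3, 25.6 and 20.7 FPKM in B2D+FF, with a log2 change of -0.35 (adjusted p = 0.330 by limma). The groups overlapped. Slc10a1 ranged from 191 to 242 FPKM in Ctrl+FF and from 156 to 220.0 FPKM in B2D+FF (log2 change -0.10, adjusted p = 0.695 by limma). Slc27a5 gave a log2 fold change of -0.034 (adjusted p = 0.928 by limma) and Baat one of -0.13 (adjusted p = 0.674 by limma). None of these conjugation and transport genes passed the test in either experiment.

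Levels in the 4 groups, set side by side, differed most for Cyp7a1, whose group means were 51.0 in Ctrl, 78.3 in B2D, 13.4 in Ctrl+FF and 13.3 FPKM in B2D+FF. Slc10a1 followed the same division, with means of 330.5, 367, 212 and 198 FPKM in that order, and its highest fenofibrate library, at 242 FPKM, was below its lowest library without fenofibrate, at 264 FPKM. Cyp27a1 means of 182, 174, 144 and 144 FPKM lay closer together. Baat means were 168, 183, 125 and 114 FPKM. Amacr had its single low group in B2D, with means of 73.7, 51.6, 75.1 and 79.8 FPKM. Cyp7b1 had its lowest mean in B2D+FF, at 17.4 FPKM, within the range of the B2D libraries. These differences between experiments were not tested, because each table was normalized on its own.

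The balance of the routes was read within each library as the log2 ratio of FPKM values, in which the library's scaling cancels. The ratio of Cyp7a1 to Cyp7b1 was 0.956, 0.493, 0.671, 0.461 and 1.22 in Ctrl mice 1 to 5. In B2D mice 1 to 5 it was 1.54, 5.99, 1.99, 4.51 and 6.57. All B2D ratios were above all Ctrl ratios, and Cyp7b1 was the lower of the pair in every B2D library but in only 1 Ctrl library. The mean log2 ratio was -0.50 ± 0.605 in Ctrl against 1.82 ± 0.953 in B2D (SD over 5 mice each), a difference of 2.32 or 4.98-fold. A two-sided exact permutation test over the 252 splits gave p = 0.00794, the smallest it can give, and 0.0476 after adjustment over the 6 ratio tests. This is not a result apart from that for Cyp7b1, which was called lower in the same libraries, at -1.71 on the log2 scale. Cyp7a1 alone, at 0.54, did not pass (adjusted p = 0.338 by limma).

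Without any 1 of the 5 Ctrl libraries, the adjusted exact permutation p was 0.0952, and with medians in place of means it was 0.171. The difference stayed between 2.09 and 2.75 on the log2 scale. With a Ctrl library left out the groups still did not overlap, but the ratio no longer passed. It passed in 5 of the 10 fits with 1 library left out. With fenofibrate the ratio was 0.522, 0.310, 0.282 and 0.295 in Ctrl+FF and 0.852, 1.23, 0.426 and 0.548 in B2D+FF. The B2D+FF ratios were mostly higher, with B2D+FF 3 below Ctrl+FF 1. The difference was 1.05 on the log2 scale or 2.06-fold (exact permutation p = 0.0571, adjusted 0.171, where 70 splits can give no less than 0.0286).

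The ratio of Cyp7a1 to Cyp27a1 did not pass in either experiment. Its geometric mean was 0.272 in Ctrl and 0.425 in B2D, a log2 difference of 0.64 (exact permutation p = 0.135, adjusted 0.270). B2D 1 had the lowest ratio of the 10 libraries, at 0.173, and B2D 5 the highest, at 0.850. Without B2D 1 the difference was 0.97 and passed, with an adjusted exact permutation p of 0.0238. With fenofibrate the geometric means were 0.0830 and 0.0855 (exact permutation p = 0.886, adjusted 0.886).

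The ratio of Cyp8b1 to Cyp7a1 had geometric means of 9.10 in Ctrl and 7.86 in B2D, a log2 difference of -0.21 (exact permutation p = 0.667, adjusted 0.800). With fenofibrate they were 34.2 and 46.6, a log2 difference of 0.44 (exact permutation p = 0.514, adjusted 0.771). Within each diet comparison the groups overlapped. Between the experiments the lowest fenofibrate library, at 18.6, was just above the highest without fenofibrate, that of Ctrl 4, a description with no test.

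**Figure D3:**
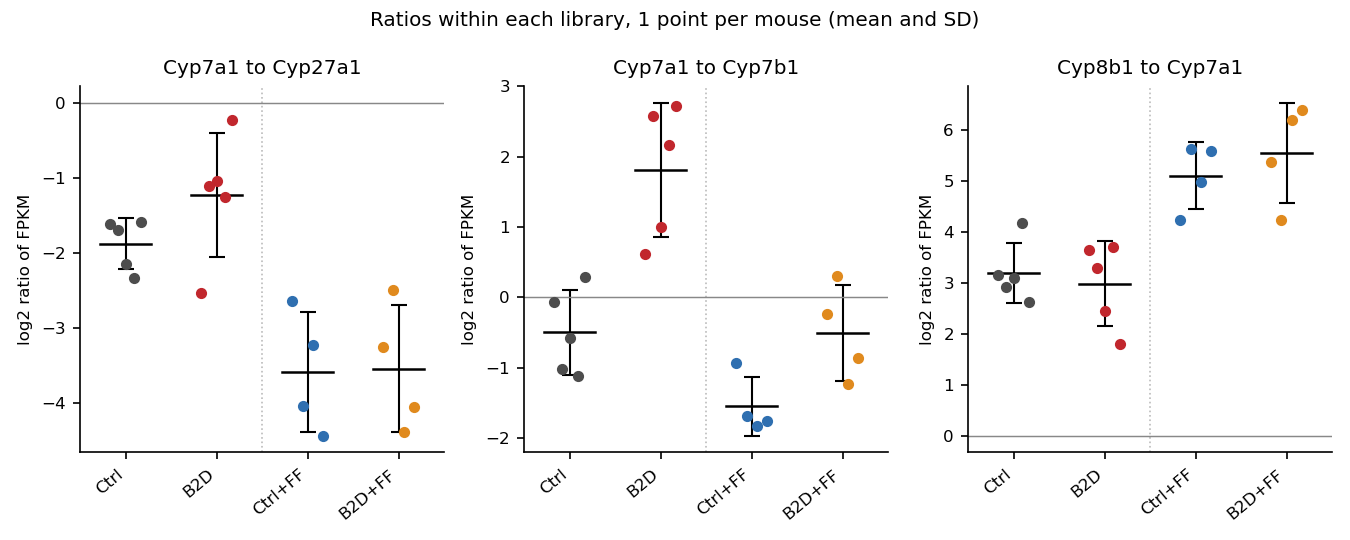
Log2 ratio of FPKM values within each library (y axis) for 3 pairs of genes in the 4 groups (x axis), with mean and SD as black lines; 0 marks equal levels. The ratio of Cyp7a1 to Cyp7b1 rose from a mean of -0.50 in Ctrl to 1.82 in B2D with no overlap, while the other ratios overlapped between diets in both experiments.

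The other steps of bile acid synthesis included genes on both sides. Of 17 tested without fenofibrate, 1 was lower and 1 higher in B2D, and their median log2 fold change was -0.011. Of 16 tested with fenofibrate, 2 were lower and 2 higher. Over all genes tested, 1.94% were lower and 0.769% higher without fenofibrate, and 2.21% and 2.24% with it. Cyp39a1, another oxysterol hydroxylase that acts beside Cyp7b1, rose from 17.5 ± 3.68 FPKM in Ctrl to 35.9 ± 8.82 FPKM in B2D (log2 fold change 0.98, adjusted p = 0.0180 by limma). It also rose from 4.05 ± 1.55 FPKM in Ctrl+FF to 14.3 ± 2.79 FPKM in B2D+FF (log2 fold change 1.63, adjusted p = 0.0042 by limma). Cyp39a1 and Cyp7b1 thus moved in opposite directions in both experiments.

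Akr1c6, a hydroxysteroid dehydrogenase, fell from 416 ± 106 to 146 ± 42.2 FPKM without fenofibrate (adjusted p = 0.0073 by limma) and from 271 ± 75.3 to 131 ± 47.2 FPKM with it (adjusted p = 0.0487 by limma). Sult2a8, a bile acid sulfotransferase, fell from 245 ± 93.3 FPKM in Ctrl+FF to 55.9 ± 14.1 FPKM in B2D+FF (adjusted p = 0.00391 by limma), and was at 379 and 197 FPKM in Ctrl and B2D (adjusted p = 0.0659 by limma). Cyp3a11, a P450 that hydroxylates bile acids and drugs, rose from 603 ± 103 to 1023 ± 183 FPKM with fenofibrate (adjusted p = 0.0355 by limma) and was at 643 and 655 FPKM without it (adjusted p = 0.889 by limma). Akr1c6 has close relatives in the genome whose reads may be split with it.

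Other bile acid and canalicular lipid transporters mostly did not pass the test. Of 15 tested, 1 was lower and 1 higher without fenofibrate, and 0 lower and 1 higher with it. The shares of all genes were 1.94% lower and 0.769% higher without fenofibrate, and 2.21% and 2.24% with it. Slco1a1, a sinusoidal organic anion transporter, fell from 93.2 ± 31.3 to 22.3 ± 20.3 FPKM in B2D (adjusted p = 0.0281 by limma) and was at 4.87 and 3.17 FPKM in Ctrl+FF and B2D+FF (adjusted p = 0.304 by limma). Slco1a4, its relative, rose from 14.5 ± 4.80 to 52.4 ± 18.9 FPKM (adjusted p = 0.00557 by limma) and from 1.46 ± 0.377 to 12.9 ± 2.70 FPKM (adjusted p = 0.000356 by limma). Slco1a1 was counted in the male-high list as well, and Slco1a4 in the female-high list.

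Among regulators of bile acid synthesis, 0 of 27 tested were lower and 1 higher without fenofibrate, and 1 lower and 0 higher with it. These counts are near the shares of all genes, 1.94% lower and 0.769% higher without fenofibrate and 2.21% and 2.24% with it. Klb, the co-receptor for the intestinal signal that lowers Cyp7a1, rose from 8.67 ± 0.886 to 12.1 ± 1.34 FPKM in B2D (adjusted p = 0.0459 by limma) and was at 5.34 and 5.71 FPKM with fenofibrate (adjusted p = 0.546 by limma). Onecut1, a hepatic transcription factor, fell from 3.31 ± 0.535 to 1.35 ± 0.597 FPKM in B2D+FF (adjusted p = 0.0203 by limma). The bile acid receptor Nr1h4 was at 63.1 and 68.7 FPKM without fenofibrate (adjusted p = 0.553 by limma) and at 49.8 and 59.8 FPKM with it (adjusted p = 0.166 by limma). Its target Nr0b2, a repressor of Cyp7a1, varied widely, from 2.17 to 30.8 FPKM in B2D, and did not pass (adjusted p = 0.866 and 0.966 by limma). Fgfr4, the receptor that partners Klb, did not pass in either comparison (adjusted p = 0.584 and 0.225 by limma).

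The electron donors of the sterol P450 enzymes include flavoproteins and heme proteins. Of the 6 tested, 1 was lower and 0 higher without fenofibrate, and none passed with it. Among all genes, 1.94% were lower and 0.769% higher without fenofibrate, and 2.21% and 2.24% with it. Fdx1, the ferredoxin that passes electrons to Cyp27a1 in mitochondria, fell from 26.4 ± 4.51 to 17.6 ± 0.928 FPKM in B2D, with no overlap of groups (log2 fold change -0.55, adjusted p = 0.0346 by limma). With fenofibrate Fdx1 was at 25.9 and 27.2 FPKM (adjusted p = 0.714 by limma). Por, the flavoprotein that serves Cyp7a1, Cyp8b1 and Cyp7b1, was at 255 and 263 FPKM without fenofibrate (adjusted p = 0.894 by limma) and at 279.8 and 374 FPKM with it (adjusted p = 0.174 by limma). Fdxr, the flavoprotein that reduces ferredoxin, was at 4.66 and 5.42 FPKM and at 6.36 and 6.84 FPKM (adjusted p = 0.825 and 0.807 by limma).

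**Figure D4:**
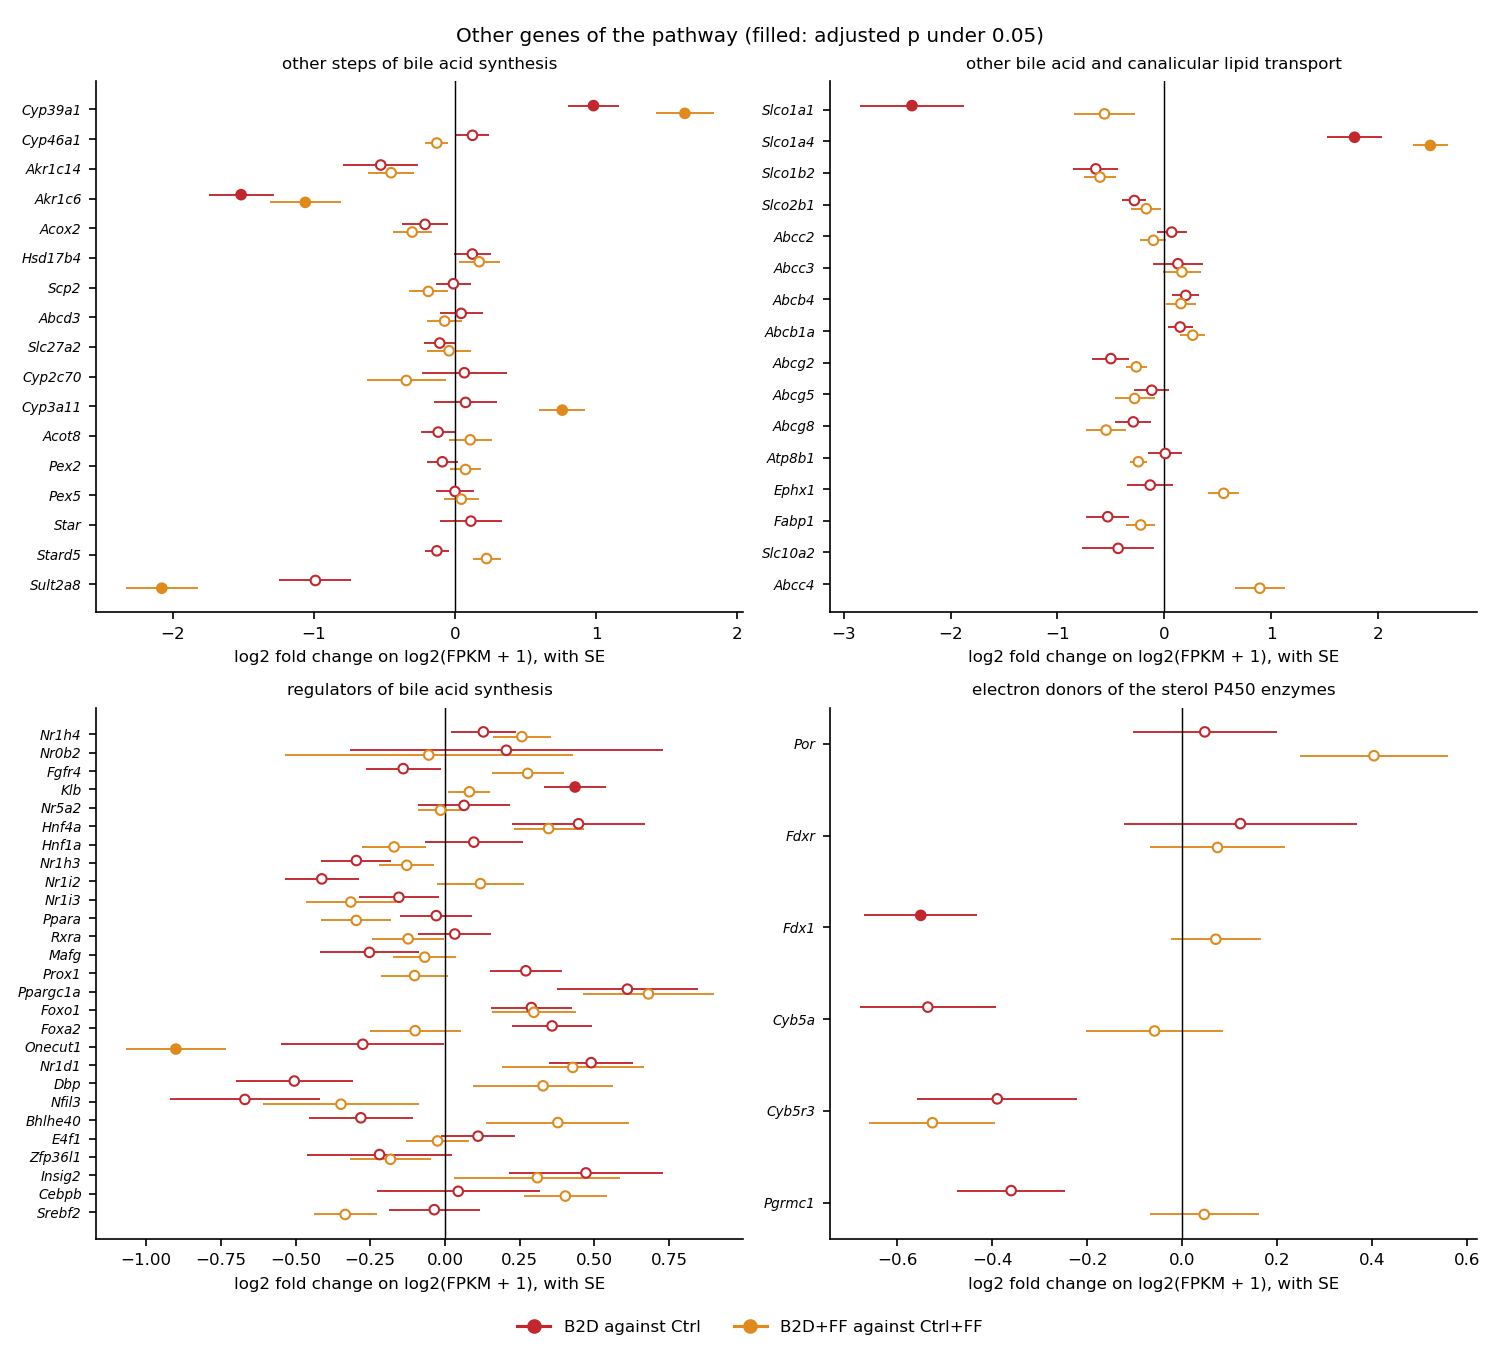
Log2 fold change on log2(FPKM + 1) with its SE (x axis) for the tested genes of 4 pathway lists (y axis), B2D against Ctrl in red and B2D+FF against Ctrl+FF in orange, filled where the adjusted p was under 0.05. Cyp39a1 and Slco1a4 were filled on the right in both comparisons, at 0.98 and 1.63 and at 1.78 and 2.49, and Akr1c6 was filled on the left in both, at -1.51 and -1.06.

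Zone markers of the lobule were compared because synthesis genes are zoned. Of 13 pericentral genes, 0 passed without fenofibrate and 1, Rgn, was lower with it. Of 14 periportal genes, 1, Cyp2f2, was lower without fenofibrate, and 3, Pck1, Ass1 and Arg1, were higher with it. The pericentral list's median log2 fold change was -0.26 without fenofibrate and -0.23 with it, with 9 and 10 of the 13 below 0. The periportal list's median was -0.00026 without fenofibrate and 0.28 with it, with 7 and 10 of the 14 above 0. Of 10 Kupffer cell genes, 2 were lower in B2D, Clec4f at -0.47 and C1qa at -0.50 on the log2 scale, and the list's median was -0.24, with 9 of the 10 below 0. Their summed level ranged from 139 to 167 FPKM in Ctrl and from 108 to 146 FPKM in B2D. No Kupffer cell gene passed with fenofibrate. Of 8 endothelial genes, Lyve1 was higher in B2D+FF, at 0.77 on the log2 scale, while the other 7 were below 0 and did not pass, and the list's median was -0.13. No cholangiocyte, stellate cell or red cell marker passed in either comparison. Beside these counts, 1.94% of all genes were lower and 0.769% higher without fenofibrate, and 2.21% and 2.24% with it. The part of the zone and cell markers in the results for Cyp7b1 and Amacr was not tested.

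The genes whose variation among mice of a group was most like that of Cyp7a1 were 5730414N17Rik, Filip1l and Agps, with Pearson r of 0.801, 0.782 and 0.779 over the 10 libraries without fenofibrate and 0.846, 0.790 and 0.840 over the 8 with it. Those most like Cyp7b1 were C8b, Paics and Slc16a12, with r of 0.886, 0.837 and 0.822 and of 0.907, 0.852 and 0.816. Likeness was the smaller of the 2 correlations, over 11031 genes, after group means were subtracted from log2(FPKM + 1). The libraries share their depth and scaling, and the values are a description. C8b was a member of the male-high list too.

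Promoter sequence from RefSeq (GRCm38.p6) was matched for 5 of the 10 genes, Cyp8b1, Cyp27a1, Akr1d1, Abcb11 and Slc10a1, and not for Cyp7a1, Cyp7b1, Amacr, Slc27a5 and Baat. In the window from 250 bases before to 50 after the start, the nuclear receptor half-site AGGTCA, searched on both strands, was found in Akr1d1, Abcb11 and Slc10a1, and in 16.3% of 32851 promoters. The STAT site TTCNNNGAA was found in Slc10a1 and in 8.30% of promoters. Slc10a1 was matched at different starts, and its sites lay in different promoters. The half-site was upstream of a start inside the gene, in chr12:80968080-80968329 (minus strand). The STAT site was in chr12:80968706-80968955 (minus strand). A gene was counted if any of its promoters held the site, while the shares are per promoter. The D-box TTATGTAA and the E-box CACGTG were in none of the 5 and in 0.938% and 7.15% of promoters. The 250 bases before the start are printed for Akr1d1 (chr6:37529923-37530172, plus strand) and Abcb11 (chr2:69342617-69342866, minus strand), which among the matched genes had the lowest fold changes in both comparisons and were chosen after these were seen, with the half-sites in capitals.
Akr1d1: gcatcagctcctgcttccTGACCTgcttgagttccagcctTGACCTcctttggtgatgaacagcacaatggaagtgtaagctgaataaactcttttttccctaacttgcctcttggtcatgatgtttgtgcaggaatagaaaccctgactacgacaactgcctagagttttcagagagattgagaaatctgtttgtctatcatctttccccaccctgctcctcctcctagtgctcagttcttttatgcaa
Abcb11: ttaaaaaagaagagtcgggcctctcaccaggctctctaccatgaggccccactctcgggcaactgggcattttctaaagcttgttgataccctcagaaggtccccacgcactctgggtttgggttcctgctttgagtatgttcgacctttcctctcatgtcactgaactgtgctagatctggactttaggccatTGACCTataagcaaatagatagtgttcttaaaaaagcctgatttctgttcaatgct
Both carry the half-site as its reverse complement, at -232 to -227 and -210 to -205 in Akr1d1 and at -56 to -51 in Abcb11, counted from the start. Neither gene passed the test in either diet comparison, and a match of letters in this window is a description only.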

How the data were processed

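Liver mRNA libraries were aligned by the authors with STAR to mm10 and counted with featureCounts, and the authors deposited FPKM values per gene in a table for each experiment, with gene length and GRCm38 coordinates (their DESeq2 tests were not used here). All 10 genes had the same coordinates in GENCODE vM21. FPKM times length gave whole reads (tolerance 0.1), from which depth was read. The deposited library scaling was that of median ratios within each table.

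Tests used limma 3.58.1 (R 4.3.3) with a variance trend, on log2(FPKM + 1), for genes averaging 0.5 FPKM or more, so that changes of low genes are understated. Each table was fitted alone, and the difference of diet effects in 1 fit of 18 libraries. The p-values of the fits were adjusted by Benjamini-Hochberg over all genes tested, and the procedure was tested on simulated data. Ratios were tested by exact permutation. Alternatives tried were a smaller pseudocount (0.1), low-value filters of 5 FPKM or none, upper-quartile (percentile 75) and quantile scaling, limma voom on recovered reads, array weights, 1 fit of all groups, and each library left out.

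The 10 genes and all lists (other synthesis steps, transport, regulators, electron donors, genes higher in male or female liver, zone markers and cell markers) were chosen with earlier results of these data known. Beside the 10 genes, those named are list genes past the threshold in either comparison (for longer lists the 6 with the smallest adjusted p), Por, Fdxr, Nr1h4, Nr0b2 and Fgfr4, and the 3 genes most like Cyp7a1 and Cyp7b1. Genes of the female-high list are not reported by name here, except Slco1a4. Intervals cover the spread between mice, with 1 library per mouse.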

Additional observations from a re-analysis of the deposited data

Results flagged for a closer look

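In 3 of the 40 sets of values (10 genes in 4 groups), 1 library lay far from the others of its group, by the gap to its nearest neighbour over the whole range, and chance marks about 1 in 20 sets. Cyp27a1 in Ctrl 5 was at 204.7 FPKM, with a gap of 0.739 of the range. Cyp27a1 in B2D+FF 2 was at 112.5 FPKM, with a gap of 0.868 of the range. Abcb11 in Ctrl 5 was at 68.1 FPKM, with a gap of 0.865 of the range.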

How the results depend on the processing

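The number of the 10 genes called lower in B2D was 2 as reported, 0 without a filter on low values and 1 after quantile normalization, and 0 to 2 with each library left out. With fenofibrate it was 1 as reported, 0 without a filter and 0 with all 4 groups in 1 fit, and 0 to 1 with each library left out, while the number called higher was 0 to 1. The number whose diet effect was higher with fenofibrate was 0 as reported and 1 with array weights. The ratio of Cyp7a1 to Cyp7b1, B2D against Ctrl, was 2.75 on the log2 scale for medians and past the threshold no longer, and 2.09 to 2.62 with libraries left out, past the threshold in 5 of 10. That of Cyp7a1 to Cyp27a1 was 0.39 to 0.97. The cause of these changes was not tested.

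Signs changed in 39 fits of 12 values, none of which passed any test in them (lowest adjusted p 0.591, limma or exact permutation). With quantile normalization the log2 fold change of Cyp27a1 in B2D was 0.021, and the differences of diet effects were -0.16 for Cyp8b1, -0.075 for Cyp27a1 and -0.018 for Slc27a5. With upper-quartile scaling the difference for Cyp27a1 was -0.0073 and the fenofibrate change of Cyp7a1 was -0.025. With array weights the fenofibrate changes were -0.10 for Cyp7a1, 0.040 for Cyp27a1 and 0.064 for Slc27a5. With libraries left out they ran from -0.19 to 0.35 for Cyp7a1, -0.057 to 0.11 for Cyp27a1, -0.13 to 0.12 for Slc27a5 and -0.16 to 0.0064 for Slc10a1, and the differences of diet effects from -0.28 to 0.027 for Akr1d1 and -0.21 to 0.16 for Abcb11. Log2 ratios of Cyp7a1 to Cyp27a1 with fenofibrate were -0.018 for medians and -0.31 to 0.36 with libraries left out, and those of Cyp8b1 to Cyp7a1 in B2D 0.20 for medians and -0.39 to 0.086. Cyp7b1 was lower on the deficient diet in every fit of both comparisons, and Amacr in every fit without fenofibrate. No paired analysis was possible because the labels number mice across the series and pair none.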
